A study of Mus musculus with 24 samples.

Results

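The receptors described here are the cardiac receptors for noradrenaline, acetylcholine and adenosine, which set the rate and force of the heart from outside the cell. The rule named 8 genes, and a value was taken for each one through the array probe sets annotated to its symbol. Of these 8, 3 had an annotated probe set, 1 each, among the 22139 genes and unnamed probe sets of the array table: Chrm2, Adra1b and Adra2c. Adrb1, Adrb3, Adra1a, Adra1d and Adora1 were not analysed here. The values came from whole hearts of male C57/BL6NCr mice, 1 array per mouse, in 4 groups of 6. TRα1+m mice, heterozygous for the R384C mutation of the thyroid hormone receptor TRα1 encoded by Thra, came from mothers that drank 0.5 mg/L T3 with 0.01% bovine serum albumin between embryonic days 12.5 and 18.5 by the labels (the study's methods end the treatment a day earlier) or from mothers that drank the albumin alone. Wild-type mice came from mothers treated in the same 2 ways. The offspring themselves received no hormone and were 4 to 5 months old at 22 °C when their hearts were taken. Below, T3-exposed and untreated refer to the treatment of the mother. The mutation is present in every cell type of the heart, and the labels name neither dams nor litters, so that mice of 1 litter cannot be told from unrelated ones.

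The autonomic nerves act on the heart through receptors that couple to G proteins. The M2 muscarinic receptor, encoded by Chrm2, is the receptor through which the vagus nerve slows the heart; its Gi protein restrains adenylyl cyclase, and the released beta-gamma subunits open the acetylcholine-gated potassium channel of atrial and pacemaker cells. The α1B-adrenergic receptor, encoded by Adra1b, answers noradrenaline through Gq and phospholipase C, and the α2C-adrenergic receptor, encoded by Adra2c, is best known from sympathetic nerve endings, where it holds back further release of noradrenaline. Thyroid hormone has long been linked to both sides of this balance, and the question put to the data was whether the receptor genes differed with the mutant TRα1 and with hormone exposure before birth.

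TRα1 binds DNA at copies of a half-site, AGGTCA, classically 2 copies in the same direction with a gap of 4 bases, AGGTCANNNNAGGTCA. The promoter windows of the 3 measured receptors are therefore shown, with any half-site on either strand (AGGTCA or TGACCT) in capitals. Each window runs from 250 bases before to 50 bases after a gene start and is taken from RefSeq on mouse build GRCm38.p6. Adra1b has 2 starts in that annotation.
Chrm2 (chr6:36387834-36388133, plus strand): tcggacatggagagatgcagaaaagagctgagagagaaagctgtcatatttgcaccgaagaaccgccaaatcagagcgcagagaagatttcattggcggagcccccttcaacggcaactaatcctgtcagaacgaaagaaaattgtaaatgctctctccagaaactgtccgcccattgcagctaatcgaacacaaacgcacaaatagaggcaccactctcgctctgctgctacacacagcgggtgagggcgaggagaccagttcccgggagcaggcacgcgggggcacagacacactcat
Adra1b, first start (chr11:43901188-43901487, minus strand): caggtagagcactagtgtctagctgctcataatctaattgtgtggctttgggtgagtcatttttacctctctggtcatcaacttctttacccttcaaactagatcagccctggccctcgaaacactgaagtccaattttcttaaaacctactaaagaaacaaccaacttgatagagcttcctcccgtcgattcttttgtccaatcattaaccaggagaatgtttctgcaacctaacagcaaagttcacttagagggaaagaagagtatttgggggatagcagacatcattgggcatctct
Adra1b, second start (chr11:43836440-43836739, minus strand): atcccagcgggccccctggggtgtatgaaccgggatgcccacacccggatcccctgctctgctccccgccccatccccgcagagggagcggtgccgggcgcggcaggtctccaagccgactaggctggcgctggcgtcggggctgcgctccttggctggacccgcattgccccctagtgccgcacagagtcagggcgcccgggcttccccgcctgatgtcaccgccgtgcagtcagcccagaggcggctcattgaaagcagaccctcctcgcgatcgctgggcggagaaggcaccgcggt
Adra2c (chr5:35278316-35278615, plus strand): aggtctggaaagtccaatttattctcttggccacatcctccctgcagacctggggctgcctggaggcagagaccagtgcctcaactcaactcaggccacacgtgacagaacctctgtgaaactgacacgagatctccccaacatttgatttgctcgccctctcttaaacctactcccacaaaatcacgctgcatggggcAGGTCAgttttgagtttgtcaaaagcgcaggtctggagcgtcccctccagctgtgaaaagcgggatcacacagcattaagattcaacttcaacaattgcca
The windows of Chrm2 and Adra1b held 0 half-sites, and the window of Adra2c held 1, starting at base 200 of the window. A half-site was present in 16.3% of all 32851 windows of 300 bases, and the spaced pair in 0.0152% of them and in none of the 4 windows shown. The first Adra1b window had a GC content of 42.3%, against 71.3% in the second. A match is a run of letters only, and binding was not measured.

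Chrm2 was lower in TRα1+m hearts than in wild-type hearts over both maternal treatments, and it was the one receptor to pass the test. On the log2 scale of the array it ranged from 9.28 to 10.85 with a median of 10.12 in T3-exposed TRα1+m hearts, and from 8.88 to 10.54 with a median of 10.23 in untreated TRα1+m hearts. In wild-type hearts it ranged from 10.01 to 11.71 with a median of 10.46 after maternal T3, and from 10.47 to 11.24 with a median of 10.82 without it. The genotypes overlapped: 8 of the 12 TRα1+m hearts lay below every untreated wild-type heart and the other 4 lay within the range of these, while 4 of the 12 lay below every wild-type heart of either treatment. The group means were 10.11 ± 0.55 in T3-exposed and 10.01 ± 0.64 in untreated TRα1+m hearts, and 10.68 ± 0.61 in T3-exposed and 10.81 ± 0.31 in untreated wild-type hearts (SD, n = 6 each).

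**Figure D1:**
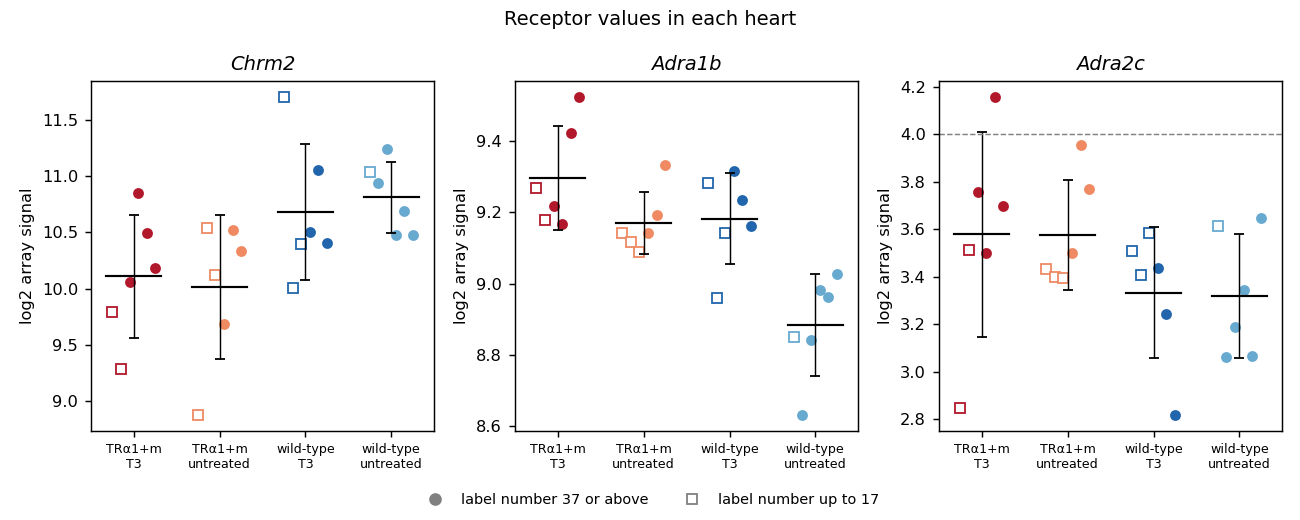
Log2 array signal of Chrm2, Adra1b and Adra2c in each heart of the 4 groups; each point is a mouse, the long line is the group mean and the bar 1 SD, and the place of a point within its group carries no meaning. Chrm2 is lower in both TRα1+m groups with overlap, Adra1b is lowest in untreated wild-type hearts, and Adra2c lies mostly below the dashed line at 4, the level under which genes were not tested.

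Averaged over both treatments, Chrm2 was 0.69 lower on the log2 scale in TRα1+m than in wild-type hearts (log2 change -0.69, standard error 0.20, limma adjusted p = 0.0390), which is 0.622 of the wild-type level, and a TRα1+m heart had the higher value in 28 of 144 pairs of mice. In this comparison 6.28% of all 19801 genes tested passed at an adjusted p under 0.05, 2.59% higher and 3.70% lower in TRα1+m hearts. Of the 2 receptors tested, 1 passed. Without maternal T3 the difference was -0.80 (standard error 0.29, adjusted p = 0.204), with the TRα1+m heart higher in 4 of 36 pairs. After maternal T3 it was -0.57 (standard error 0.29, adjusted p = 0.391), with the TRα1+m heart higher in 9 of 36 pairs. Neither of these passed, and 0 of the 2 receptors did so in either comparison, where 1.62% and 2.79% of all genes passed.

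The Chrm2 call depended on single mice, and its size differed between the ranges of the label numbers. The labels number 9 mice up to 17 and 15 mice from 37 without saying what the numbers mean. The difference was -0.42 among the 15 mice with the higher numbers (adjusted p = 0.229) and -1.18 among the 9 with the lower numbers (adjusted p = 0.343), where untreated wild-type hearts had 1 mouse. Leaving out mice in turn gave differences from -0.76 to -0.57. The call was lost without T3-exposed TRα1+m mouse 16, 17 or 49, untreated TRα1+m mouse 4 or 52, T3-exposed wild-type mouse 13 or 47, or untreated wild-type mouse 2, 37 or 39, and over all 24 such fits the adjusted p ran from 0.0209 to 0.0731. A two-way analysis of variance, which uses each gene's own spread, did not call Chrm2 (adjusted p = 0.0731). The study's methods name this test for chosen sets of heart rate and potassium channel genes, whereas here it was run and adjusted over all 19801 genes.

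Maternal T3 was not followed by a detectable change of Chrm2. The difference between T3-exposed and untreated hearts was 0.10 in TRα1+m mice (95% confidence interval -0.49 to 0.68, adjusted p = 0.947) and -0.13 in wild-type mice (interval -0.72 to 0.45, adjusted p = 0.890). Over both genotypes it was -0.02 (interval -0.43 to 0.40, adjusted p = 0.977), and the T3-exposed heart was higher in 62 of 144 pairs. The interaction, which is the T3 difference of TRα1+m hearts less the T3 difference of wild-type hearts, was 0.23 (interval -0.60 to 1.06, adjusted p = 0.9996). The interval in wild-type hearts thus still included a decrease as large as the genotype difference.

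Adra1b was lowest in untreated wild-type hearts, and the medians of the other 3 groups lay close together above theirs. It ranged from 9.17 to 9.52 with a median of 9.24 in T3-exposed TRα1+m hearts, and from 9.09 to 9.33 with a median of 9.14 in untreated TRα1+m hearts. In wild-type hearts it ranged from 8.96 to 9.32 with a median of 9.20 after maternal T3, and from 8.63 to 9.03 with a median of 8.91 without it. Every untreated TRα1+m heart was thus above every untreated wild-type heart, while after maternal T3 the 2 genotypes overlapped. The share of all genes that separated the untreated groups in this way was not counted. The spread within a group was small, with SDs from 0.09 to 0.14 (n = 6 each).

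The genotype difference of Adra1b was 0.29 without maternal T3 (standard error 0.11, unadjusted p = 0.0186, limma adjusted p = 0.286) and 0.11 after it (standard error 0.11, adjusted p = 0.741). An unadjusted p under 0.05 was reached by 11.5% of all genes without maternal T3 and by 13.7% after it. Over both treatments the difference was 0.20 (standard error 0.08, adjusted p = 0.163), with the TRα1+m heart higher in 112 of 144 pairs. Here the choice of test decided the call: the two-way analysis of variance called Adra1b (adjusted p = 0.0229), while limma, which draws a gene's small spread towards that of other genes, did not. The difference was 0.21 among the mice with label numbers from 37 and 0.18 among those up to 17.

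Adra1b also had the larger T3 differences of the 2 tested receptors, and none of them passed. In wild-type hearts the T3-exposed group was 0.30 higher (standard error 0.11, unadjusted p = 0.0142, adjusted p = 0.399), and the T3-exposed heart had the higher value in 33 of 36 pairs. In TRα1+m hearts the T3-exposed group was 0.13 higher (adjusted p = 0.783), with 30 of 36 pairs. Over both genotypes the difference was 0.21 (standard error 0.08, unadjusted p = 0.0136, adjusted p = 0.205), with 120 of 144 pairs, and it was 0.23 and 0.19 among mice with label numbers from 37 and up to 17. The interaction was -0.17 (interval -0.50 to 0.16, adjusted p = 0.9996). For maternal T3, 0.0859% of all genes passed in TRα1+m hearts, 0.00505% in wild-type hearts and 0.0101% over both genotypes, and 0% passed for the interaction, against 0 of the 2 receptors in each. At an unadjusted p under 0.05 the shares of all genes were 8.31%, 11.0%, 16.3% and 4.19% in the same 4 comparisons, and Adra1b was among them in wild-type hearts and over both genotypes.

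**Figure D2:**
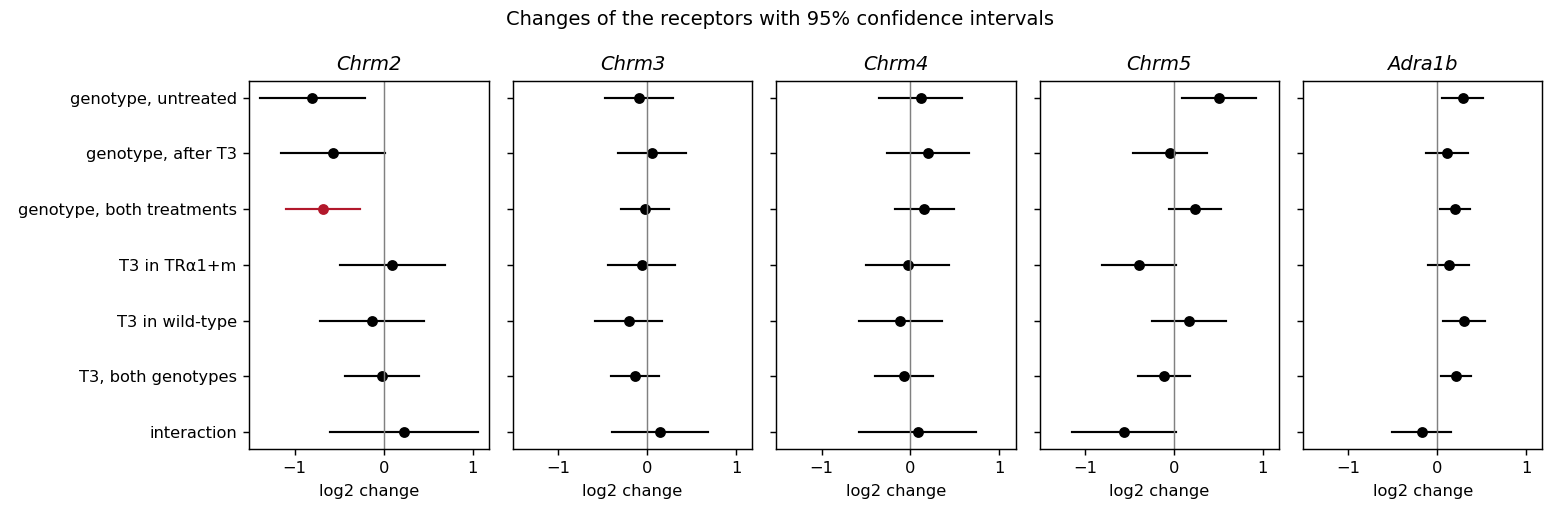
Log2 change of 5 receptor genes in 7 comparisons, with points for the limma estimate and lines for its 95% confidence interval; genotype means TRα1+m minus wild-type, T3 means T3-exposed minus untreated, and red marks an adjusted p under 0.05. The Chrm2 genotype difference over both treatments is the one estimate in red.

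Adra2c gave values at the lower end of the array and was not tested, because no group mean exceeded 4. It ranged from 2.85 to 4.16 with a median of 3.61 in T3-exposed TRα1+m hearts, and from 3.39 to 3.95 with a median of 3.47 in untreated ones. In wild-type hearts it ranged from 2.82 to 3.58 with a median of 3.42 after maternal T3, and from 3.06 to 3.65 with a median of 3.27 without it. The groups overlapped throughout, with 1 of 24 hearts, T3-exposed TRα1+m mouse 51, above 4. Signal this low does not show whether the gene was expressed.

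Of 10 further adrenergic, muscarinic and adenosine receptors, 4 had an annotated probe set and 3 were tested, and 0 of these passed in any of the 7 comparisons. Chrm3, the muscarinic receptor best known from glands and smooth muscle, ranged from 5.38 to 6.14 in untreated TRα1+m and from 5.59 to 6.20 in untreated wild-type hearts, and its genotype difference over both treatments was -0.02 (95% confidence interval -0.29 to 0.25). Chrm4, a Gi-coupled receptor of the brain, and Chrm5, a Gq-coupled receptor, lay at the level for testing and entered the test only because untreated TRα1+m hearts, their highest group, averaged just above 4. Chrm4 had a genotype difference of 0.16 (interval -0.17 to 0.49). Chrm5 ranged from 3.61 to 4.50 in untreated TRα1+m and from 3.09 to 4.22 in untreated wild-type hearts, a difference of 0.51 that did not pass and that the filter favours, and after maternal T3 the difference was -0.04. Chrm1, the main muscarinic receptor of nerve cells, stayed below the level for testing, with group means from 3.13 to 3.40.

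The related receptors and the signalling genes around them, from G proteins to the targets of protein kinase A, were taken as lists of 130 genes, of which 114 had a probe set and 107 were tested, 4 of them (Chrm4, Chrm5, Adcy8 and Slc5a7) with a mean above 4 in 1 group only. The lists were chosen with earlier results of these data known. Over both treatments 18 of the 107 passed for genotype, 10 higher and 8 lower in TRα1+m hearts, against 6.28% of all genes. Of the 103 genes above 4 in every group 10 were higher and 7 lower. The shares of all genes were 2.59% higher and 3.70% lower, and they stand beside the counts of each single list below. Among untreated hearts 6 passed, 4 higher and 2 lower, and the shares of all genes were 0.566% higher and 1.06% lower. Among T3-exposed hearts 9 passed, 7 higher and 2 lower, and the shares of all genes were 1.13% higher and 1.66% lower. For maternal T3 in TRα1+m hearts, in wild-type hearts and over both, and for the interaction, 0 passed by limma, while 9, 12, 11 and 9 of the 107 had an unadjusted p under 0.05. These are shares of 8.41%, 11.2%, 10.3% and 8.41%, against 8.31%, 11.0%, 16.3% and 4.19% of all genes. The first 2 thus lay near the share of all genes, the third below it and the fourth, for the interaction, above it. These shares were not tested against each other. The median difference of the 107 genes over both treatments was 0.01, against -0.01 over all genes.

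Of 5 tested kinases and arrestins that switch receptors off, the kinases Grk5 and Grk3 were higher in TRα1+m hearts and the other 3 genes did not pass. Over both treatments 2.59% of all genes passed as higher. Grk5, a G protein-coupled receptor kinase that phosphorylates activated adrenergic receptors, ranged from 11.66 to 12.89 in T3-exposed and 12.14 to 12.63 in untreated TRα1+m hearts, against 11.12 to 11.79 in T3-exposed and 10.79 to 11.68 in untreated wild-type hearts. It was 2.03 times as high in TRα1+m hearts over both treatments (log2 change 1.02, standard error 0.13, adjusted p = 4.36e-06), with 142 of 144 pairs in this direction. Grk3, which is drawn to the membrane by G beta-gamma subunits, ranged from 8.75 to 9.39 in T3-exposed and 8.47 to 9.45 in untreated TRα1+m hearts, against 7.84 to 8.74 in T3-exposed and 7.92 to 8.30 in untreated wild-type hearts. Its change was 0.84 (standard error 0.13, adjusted p = 5.63e-05). Both passed in each treatment on its own.

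Of 10 tested adenylyl cyclases, which make cyclic AMP under the control of Gs and Gi, 2 were higher and 1 lower in TRα1+m hearts over both treatments. The shares of all genes were 2.59% higher and 3.70% lower. Adcy6, with Adcy5 a main cardiac isoform, ranged from 13.19 to 13.82 in T3-exposed and 13.04 to 13.47 in untreated TRα1+m hearts, against 12.29 to 12.96 in T3-exposed and 12.54 to 13.01 in untreated wild-type hearts. Every TRα1+m heart was above every wild-type heart, and the change over both treatments was 0.72 (standard error 0.10, adjusted p = 1.28e-05). It was 0.99 after maternal T3 (adjusted p = 7.44e-05) and 0.45 without it (adjusted p = 0.114). Adcy5 was 0.79 higher in TRα1+m hearts (standard error 0.14, adjusted p = 0.000507) and passed in each treatment. Adcy8, a calcium-stimulated isoform, gave the lower call (log2 change -0.46, adjusted p = 0.0192), but its group means were 3.39 to 4.01, at the lower end of the array. It entered the test only through untreated wild-type hearts, the group where it was highest, and the call is given with that limit; with no filter on low values its adjusted p was 0.0214. Adcy1, also calcium-stimulated, was lower in TRα1+m hearts after maternal T3 (-0.71, adjusted p = 0.0403) and differed by -0.07 without it (adjusted p = 0.946). The other 6 of the 10 cyclases did not pass. The interaction of genotype and maternal T3 did not pass for Adcy6 (0.54, limma adjusted p = 0.9996) or for Adcy1 (-0.64, limma adjusted p = 0.9996).

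**Figure D3:**
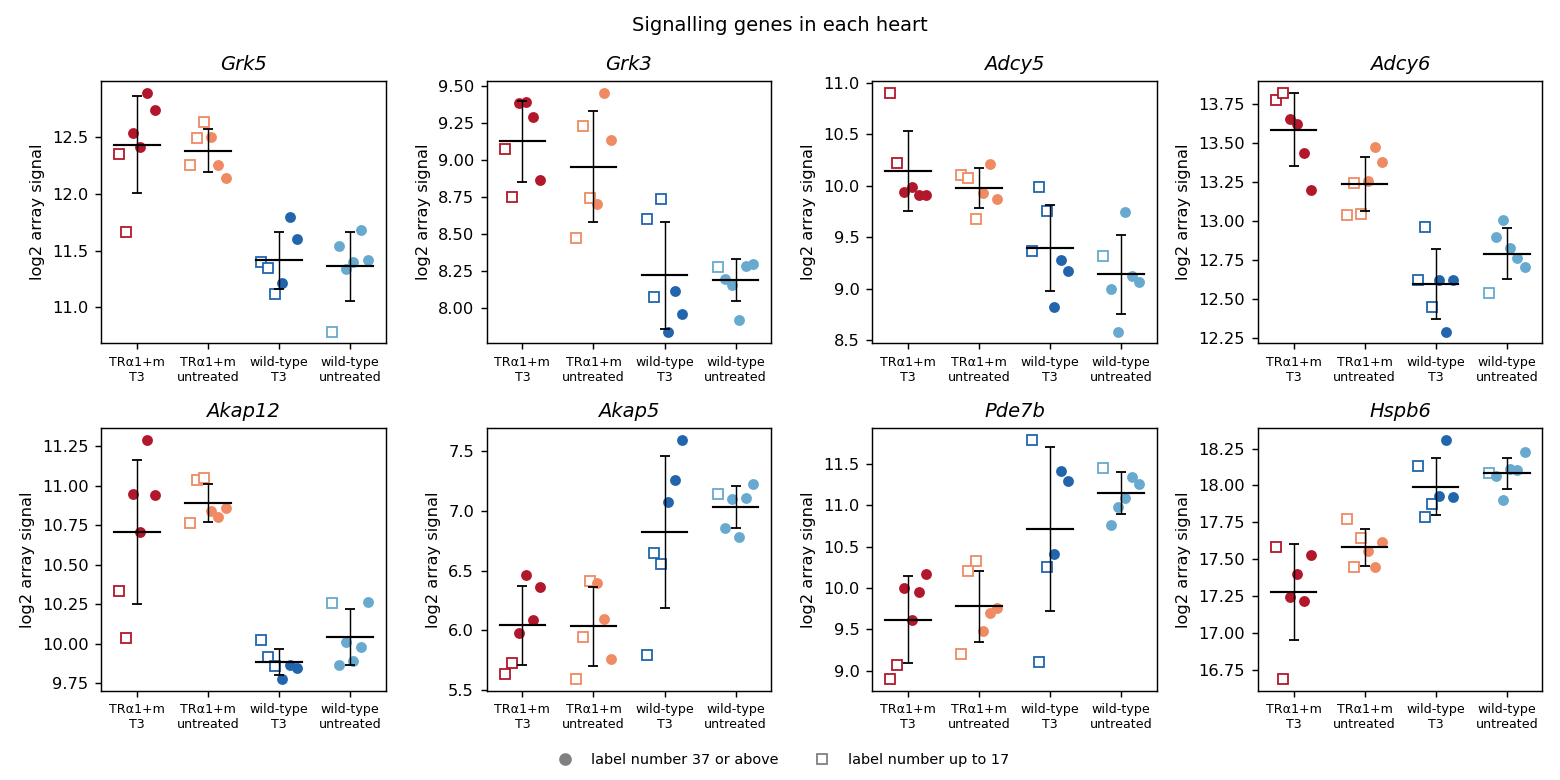
Log2 array signal of 8 signalling genes in each heart of the 4 groups; each point is a mouse, the long line is the group mean and the bar 1 SD. Grk5, Grk3, Adcy5, Adcy6 and Akap12 are higher and Akap5, Pde7b and Hspb6 lower in TRα1+m hearts. For Adcy6 and Hspb6 the 2 genotypes do not overlap, and the share of all genes without overlap was not counted.

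Anchors and inhibitors of protein kinase A, the kinase that cyclic AMP activates, gave 2 higher and 2 lower genes among 18 tested. Akap12, an anchor that also binds the β2-adrenergic receptor, was 0.84 higher in TRα1+m hearts (standard error 0.11, adjusted p = 1.1e-05), with ranges of 10.04 to 11.29 in T3-exposed and 10.76 to 11.05 in untreated TRα1+m hearts against 9.78 to 10.03 in T3-exposed and 9.86 to 10.26 in untreated wild-type hearts. Akap7, an anchor near calcium channels and phospholamban, was 0.35 higher (adjusted p = 0.0271). Akap5, an anchor that gathers adrenergic receptors, cyclase and kinase at the membrane, ranged from 5.64 to 6.46 in T3-exposed and 5.60 to 6.42 in untreated TRα1+m hearts, against 5.79 to 7.59 in T3-exposed and 6.78 to 7.23 in untreated wild-type hearts. Its change was -0.89 (standard error 0.16, adjusted p = 0.000425), and without maternal T3 the 2 genotypes did not overlap. Pkia, a peptide inhibitor of the kinase, had a change of -0.43 (adjusted p = 0.0141).

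Phosphodiesterases, which break down cyclic nucleotides, gave 3 higher and 2 lower genes among 16 tested, against 2.59% higher and 3.70% lower of all genes. Pde7b, specific for cyclic AMP, ranged from 8.90 to 10.17 in T3-exposed and 9.20 to 10.33 in untreated TRα1+m hearts, against 9.10 to 11.79 in T3-exposed and 10.76 to 11.45 in untreated wild-type hearts. Its change was -1.23 (standard error 0.23, adjusted p = 0.00066), the largest in size among the 18 signalling genes that passed over both treatments. Pde2a, an enzyme stimulated by cyclic GMP, had a change of -0.60 (adjusted p = 0.0316). Pde1c, stimulated by calcium and calmodulin, was 0.54 higher (adjusted p = 0.00295) and Pde9a, specific for cyclic GMP, 0.45 higher (adjusted p = 0.0418). The remaining gene, Pde3a, which cyclic GMP inhibits, was 0.54 higher and is named after its value was seen.

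Further along the pathways single genes passed. Gnai1, an inhibitory alpha subunit of the kind M2 receptors couple to, was 0.47 higher in TRα1+m hearts (standard error 0.13, adjusted p = 0.0346), 1 of 17 tested G protein subunits. Gnaq, the Gq alpha subunit through which Adra1b signals, differed by -0.23 and did not pass (adjusted p = 0.366). Among 11 tested Gq effectors, Prkcb, a protein kinase C, was lower in TRα1+m hearts over both treatments (-0.47, adjusted p = 0.037). Itpr2, a calcium release channel gated by inositol trisphosphate, was higher in TRα1+m than in wild-type hearts among T3-exposed mice (0.63, adjusted p = 0.0332). Of 8 tested targets of protein kinase A, Hspb6, a small heat shock protein phosphorylated under adrenergic drive, had a change of -0.61 (standard error 0.10, adjusted p = 0.000144), and its 12 TRα1+m values, 16.69 to 17.77, all lay below its 12 wild-type values, 17.79 to 18.31. Mybpc3, cardiac myosin-binding protein C, had a change of -0.33 (adjusted p = 0.032). Rrad, of the same list, ranged from 13.84 to 14.87 in untreated TRα1+m and from 14.57 to 15.05 in untreated wild-type hearts. The T3-exposed heart had the higher Rrad value in 34 of 36 pairs of TRα1+m mice and 29 of 36 of wild-type mice. Over both genotypes this held in 128 of 144 pairs, and Rrad passed in no comparison. Without maternal T3, Grk5, Grk3, Akap12, Akap7, Pde7b and Mybpc3 separated the genotypes as fully as Akap5 did. After maternal T3, Grk3, Akap12, Pde1c and Itpr2 did so. How many of all genes separated the genotypes as these genes, Hspb6 and Adcy6 did was not counted.

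These calls differed in how far they depended on single mice. Over both treatments, Grk5, Grk3, Adcy5, Adcy6, Akap12, Akap5, Pkia, Pde7b, Pde1c and Hspb6 passed in all 24 fits that each left out 1 mouse. Akap7 lost its call in 3 of these fits, Pde2a in 8, Mybpc3 in 9, Gnai1 in 12, Prkcb in 13, Pde9a in 14 and Pde3a in 17, with adjusted p of at most 0.0874. Adcy8 kept its call in all 24 fits, with the limit on its entry into the test given above. Of the calls after maternal T3, those of Adcy5, Itpr2 and Adcy1 were lost in 7, 8 and 9 fits, and of those without maternal T3, those of Adcy5, Pde7b and Grk3 in 7, 4 and 3. No sign changed in any fit.

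The channel that M2 receptors open and the genes that make or clear the transmitters gave 0 passing genes in the 7 comparisons. For the channel, Kcnj5 differed by 0.32 (adjusted p = 0.13) and Kcnj3 by -0.27 (adjusted p = 0.329) between TRα1+m and wild-type hearts over both treatments. Of 10 tested genes of catecholamine and acetylcholine handling, Ddc, which makes dopamine, differed by 0.38 (adjusted p = 0.053) and Ache, acetylcholinesterase, by -0.31 (adjusted p = 0.33). Of 7 genes of adenosine handling, Nt5e, which forms adenosine, differed by -0.28 (adjusted p = 0.384) and Slc29a1, a nucleoside transporter, by -0.37 (adjusted p = 0.0721).

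The genes whose values followed each receptor most closely over the 24 hearts were named from 17478 tested genes with a symbol. For Chrm2 these were Chpt1, which makes phosphatidylcholine (Pearson r 0.87), Myom1, a protein of the sarcomeric M-band (0.87), and Pm20d2 (0.87). They kept r of 0.84, 0.81 and 0.83 once group means were removed, and had 0.70, 0.78 and 0.81 among mice with label numbers from 37. For Adra1b they were Cxcr4, a chemokine receptor (0.80), Septin10 (0.79) and Tmem141 (0.72), with 0.58, 0.49 and 0.45 after removal of group means. Among mice with label numbers from 37 their r was 0.85, 0.80 and 0.81. For Adra2c, whose values lay at the lower end of the array, they were Slc41a3 (0.70), Epb41l4b (0.68) and Fam8a1 (0.67). The hearts in these correlations share groups and array processing, and the genes were chosen as the highest of many.

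A heart sample can hold differing amounts of atrium, vessel and fat, and in bulk tissue fewer cells of a type and less RNA per cell cannot be told apart. Atrial markers (6 of 6 measured) varied by several log2 units between mice in every group, with list means of 11.43 to 14.90 in T3-exposed and 11.85 to 14.42 in untreated TRα1+m hearts, and 11.22 to 15.30 in T3-exposed and 11.36 to 14.32 in untreated wild-type hearts, and 0 of the 6 passed for genotype. Their part in the Chrm2 difference was not tested. Of 5 markers of the sinoatrial node, Hcn4 was lower and Tbx18 higher in TRα1+m hearts over both treatments. Smooth muscle markers (5 of 5) had medians of 10.97 and 10.88 in T3-exposed and untreated TRα1+m hearts and 10.90 and 10.21 in T3-exposed and untreated wild-type hearts, so that untreated wild-type hearts were lowest in them as in Adra1b. The mean of the 2 brown adipocyte markers had medians of 9.04 and 8.05 in T3-exposed and untreated TRα1+m hearts. In T3-exposed and untreated wild-type hearts these medians were 7.12 and 6.21. Ucp1 alone followed that order, with medians of 8.85, 7.48, 5.04 and 3.54 in the same 4 groups. Cidea, the other marker, had medians of 8.93, 8.87, 9.38 and 8.88. Of 6 adipocyte markers 5 were measured, with list means from 4.66 to 8.66 over all mice. For these 3 lists 0 markers passed in any comparison, and their part in the Adra1b differences was not tested. Of 5 endothelial markers Tie1 and Vwf were lower in TRα1+m hearts over both treatments. Pecam1, Cdh5 and Kdr did not pass, and group means of Cdh5 and Kdr were slightly lower in TRα1+m hearts. Pecam1 went the other way, with means of 12.57 and 12.45 in T3-exposed and untreated TRα1+m hearts. Its means were 12.45 and 12.38 in T3-exposed and untreated wild-type hearts. Of sympathetic neuron markers 5 of 6, of cholinergic neuron markers 3 of 3 and of Schwann cell markers 2 of 4 were measured, 0 passed, and 2 of the 3 cholinergic markers were below the level for testing.

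**Figure D4:**
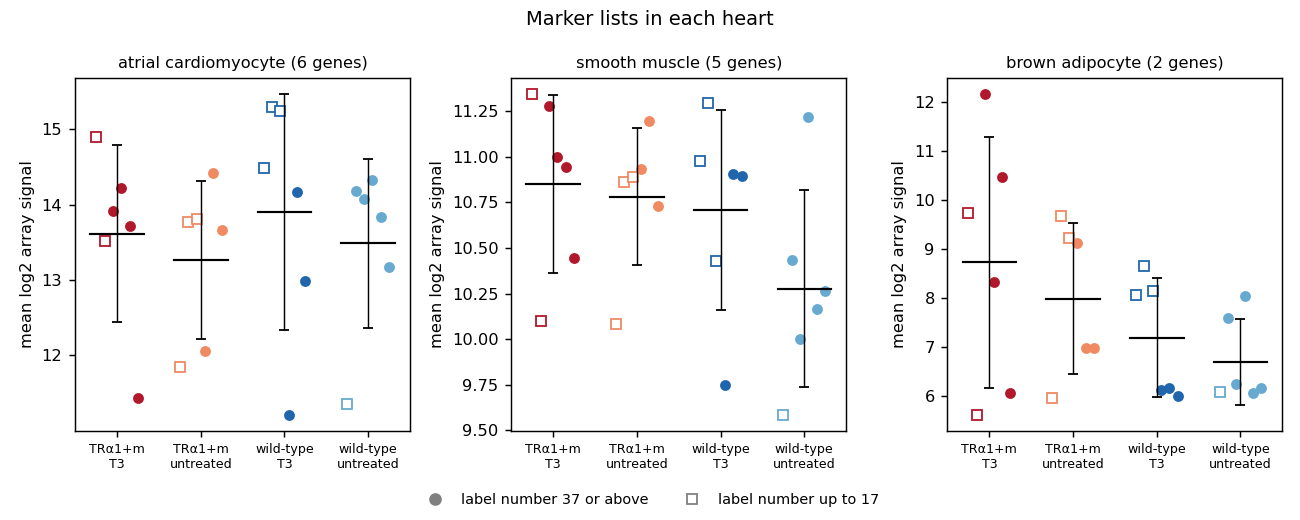
Mean log2 array signal of 3 marker lists in each heart of the 4 groups; each point is a mouse, the long line is the group mean and the bar 1 SD. Atrial markers spread over several log2 units in every group. The list means of smooth muscle and brown adipocyte markers have their lowest medians in untreated wild-type hearts. Of the 2 brown adipocyte markers this holds for Ucp1 and not for Cidea.

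The genotype labels were checked on Myh7 and the tissue on cardiomyocyte markers. Thra was 0.66 higher in TRα1+m hearts over both treatments (standard error 0.09, adjusted p = 1.79e-05). Its probe set does not tell the mutant allele from the normal one, so that Thra cannot check the labels. Myh7, the slow myosin heavy chain that thyroid hormone represses in mouse heart, was 1.83 higher (standard error 0.14, adjusted p = 2.21e-09), and all 6 cardiomyocyte markers were at 17.38 or above on average. Arrays correlated with each other at 0.973 to 0.990 and had medians of 6.31 to 6.38, and between 18505 and 19246 genes lay above 4. The number of arrays limits the precision.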

How the data were processed

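RNA from 24 hearts was hybridised to Clariom S mouse arrays. The authors deposited RMA-normalised log2 values per probe set, made with the Transcriptome Analysis Console 4.0.1 per the labels. Control probe sets were left out, symbols were those of the platform annotation, brought to RefSeq names (GRCm38.p6) through gene numbers, and where a symbol had several probe sets the one with the highest mean was kept. Genes with a mean above 4 in at least 1 group were tested with limma 3.58.1 in R 4.3.3: 4 group means over all 24 arrays, empirical Bayes variances, 7 contrasts and Benjamini-Hochberg adjustment over 19801 genes at 0.05, checked on simulated data. Intervals are 95%. Replicates are single mice, and without litter labels the p-values measure only the spread between these samples. Members and lists were chosen with earlier results of these data known. Named are all members and related receptors, up to 4 passing genes per list and comparison with the lowest p (in untreated hearts the 2 lowest where none passed), and the 3 genes most correlated with each member. Alternatives were other filters, variance models, array weights, median centring, label-number ranges, pairs of groups alone, left-out mice, a 1.5-fold limit and the methods' two-way analysis of variance, here over all genes tested.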

Additional observations from a re-analysis of the deposited data

How the results depend on the processing

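For the receptors, the count of 1 passing for genotype over both treatments became 0 with array weights, 0 among label numbers from 37 and 0 among label numbers up to 17 (the last setting was chosen after seeing the data), and 0 to 1 when mice were left out in turn. The two-way analysis of variance also counted 1, but it was Adra1b in place of Chrm2. The Chrm2 difference was -0.56 with array weights, -0.42 and -1.18 in the 2 ranges, and unchanged at -0.69 in the analysis of variance, and in none of these did it pass; without single mice it was -0.76 to -0.57 and passed in 14 of 24 fits. The other 6 receptor counts stayed at 0 in every setting run. The Chrm2 difference with maternal T3 over both genotypes changed sign, to 0.045 with array weights, 0.0036 with the label-number range as a covariate and 0.053 among numbers from 37. Without single mice it was -0.13 to 0.065 over both genotypes, -0.13 to 0.26 in TRα1+m hearts alone and -0.34 to 0.00051 in wild-type hearts alone. Of the signalling genes, 10 in place of 6 passed in untreated hearts with array weights, 4 in place of 9 in T3-exposed hearts when the 2 groups were fitted alone, and over both treatments 0 in place of 18 among label numbers up to 17 and 9 with a change of at least 1.5-fold. Some of these settings bring fewer arrays or a stricter limit, and the causes of the changed counts were not tested. For 36 differences of other named genes, 306 alternatives reversed 0, and in 41 of these alternatives a call was lost. Averaging all probe sets of a symbol gave no value of its own, since each receptor had 1. No paired analysis was possible because the label numbers of the mice are shared by no 2 groups. Low signal limits Adra2c and Chrm1, which were not tested.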
